A study of Homo sapiens with 8 samples.

Results

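The genes described here are 38 genes known to be controlled by, or to act beside, the transcription factor ATF4 when cells run short of amino acids. They were taken by gene symbol from a list, and 37 of the 38 were measured, out of 18417 named genes in the series. CBS, an enzyme that makes cystathionine from homocysteine, shares its probe set with a second gene and was not analysed here. Of the 37, 4 had several probe sets, and for these the probe set of highest mean level was taken.

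Expression was measured in 2 established prostate cancer cell lines on 8 microarrays, 1 for each line and transfected construct. LNCaP cells respond to androgen, and DU145 cells grow without it. In each line the groups were cells given an siRNA against TET2 (siTET2), cells given a control siRNA (siControl), cells given miR-29b and cells given a negative control miRNA (nc). All 8 cultures grew in RPMI medium with 10% serum, and RNA was taken 72 h after transfection, so every group, controls included, had been transfected. TET2 turns 5-methylcytosine of DNA into its hydroxymethyl form. With 1 array per group, no difference within a line has a replicate or a p-value.

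ATF4 is the main output of the integrated stress response. Kinases that sense amino acid shortage, unfolded protein, viral RNA or low heme phosphorylate the initiation factor eIF2, which slows translation in general while that of ATF4 mRNA goes up. ATF4 then binds C/EBP-ATF response elements together with C/EBP partners and switches on amino acid transporters, enzymes of serine, asparagine and one-carbon metabolism and tRNA synthetases, as well as regulators such as DDIT3 (CHOP) and CHAC1 that act under lasting stress. Because ATF4 is controlled mostly through translation, its mRNA need not follow its activity, and no protein was measured here.

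The response element was searched as the letters TGATGNAAN, on either strand, in promoters of RefSeq (GRCh38.p14, 250 bases before to 50 after the start of transcription). Of 35116 promoters, 3.61% held it, and of the 49 promoters of members, 13 did (26.5%), each in a different gene among the 32 measured members found in that table. The matches of 9 members are shown with 10 bases on each side, because these are the letters that ATF4 and its partners are known to recognise. Those chosen hold TGATGCAA or its reverse complement TTGCATCA, and ASNS was added as the classic amino acid response gene. Capitals mark the match, which is a description of the letters and not a measured binding site.

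CHAC1, chr15:40953251-40953279, plus strand: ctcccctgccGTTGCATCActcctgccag
ASNS, chr7:97872458-97872486, minus strand: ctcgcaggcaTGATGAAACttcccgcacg
AARS1, chr16:70289676-70289704, minus strand: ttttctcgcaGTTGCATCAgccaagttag
CARS1, chr11:3057408-3057436, minus strand: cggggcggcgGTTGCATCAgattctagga
MARS1, chr12:57488053-57488081, plus strand: gccggttccgGTTGCATCAgcgagggatt
TARS1, chr5:33440956-33440984, plus strand: gcgcctttcgATTGCATCAgctggtccag
NARS1, chr18:57621804-57621832, minus strand: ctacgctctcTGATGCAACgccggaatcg
CEBPG, chr19:33374061-33374089, plus strand: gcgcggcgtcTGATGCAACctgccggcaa
SLC1A5, chr19:46784893-46784921, minus strand: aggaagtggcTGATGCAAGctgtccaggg

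The matches of ASNS, AARS1 and CHAC1 begin 68, 188 and 210 bases before the start. Of the 9 genes, 5 charge tRNAs, with alanine (AARS1), cysteine (CARS1), methionine (MARS1), threonine (TARS1) or asparagine (NARS1). The other construct of interest, miR-29b, is listed by RefSeq in its 3p form, with the seed (bases 2 to 8) in capitals. The labels do not say which arm was transfected.

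hsa-miR-29b-3p: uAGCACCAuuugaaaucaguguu

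The values are on the log2 scale of the authors' RMA processing. The median over named genes was 7.63 to 7.70 on the LNCaP arrays and 7.36 to 7.42 on the DU145 arrays, so levels were compared within a line first. Of 6 LNCaP markers measured, 5 or 6 lay at or above the array median in LNCaP and 1 in DU145, and of 11 DU145 markers, 1 did in LNCaP and 10 in DU145. Of 7 immune cell markers 1 lay there on every array, and of 7 fibroblast markers 0 or 1. TET2 was 7.89 with siTET2, 9.01 with siControl, 8.59 with miR-29b and 9.24 with nc in LNCaP. In DU145 it was 6.60 with siTET2, 7.85 with siControl, 7.79 with miR-29b and 7.96 with nc. A second TET2 probe set differed by -0.85 in LNCaP and -0.91 in DU145 between siTET2 and siControl. In whole-culture RNA, fewer cells with a transcript and less of it per cell cannot be told apart.

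The first question was how members differed with miR-29b. In LNCaP, most members were higher with miR-29b than with nc: 33 of 37 differences were above 0, where 45.3% of all named genes were. The stress regulators were mixed, with 4 of 7 above 0. CHAC1, which degrades glutathione, was 1.98-fold higher and SLC7A11, the cystine importer, 1.68-fold higher. Enzymes, transporters and tRNA synthetases differed by less but almost all in the same direction, and the same members in DU145 lay near or slightly below 0. The miR-29b array was the highest of the 4 LNCaP arrays for 30 of 37 members, against 21.7% of all named genes.

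**Figure D1:**
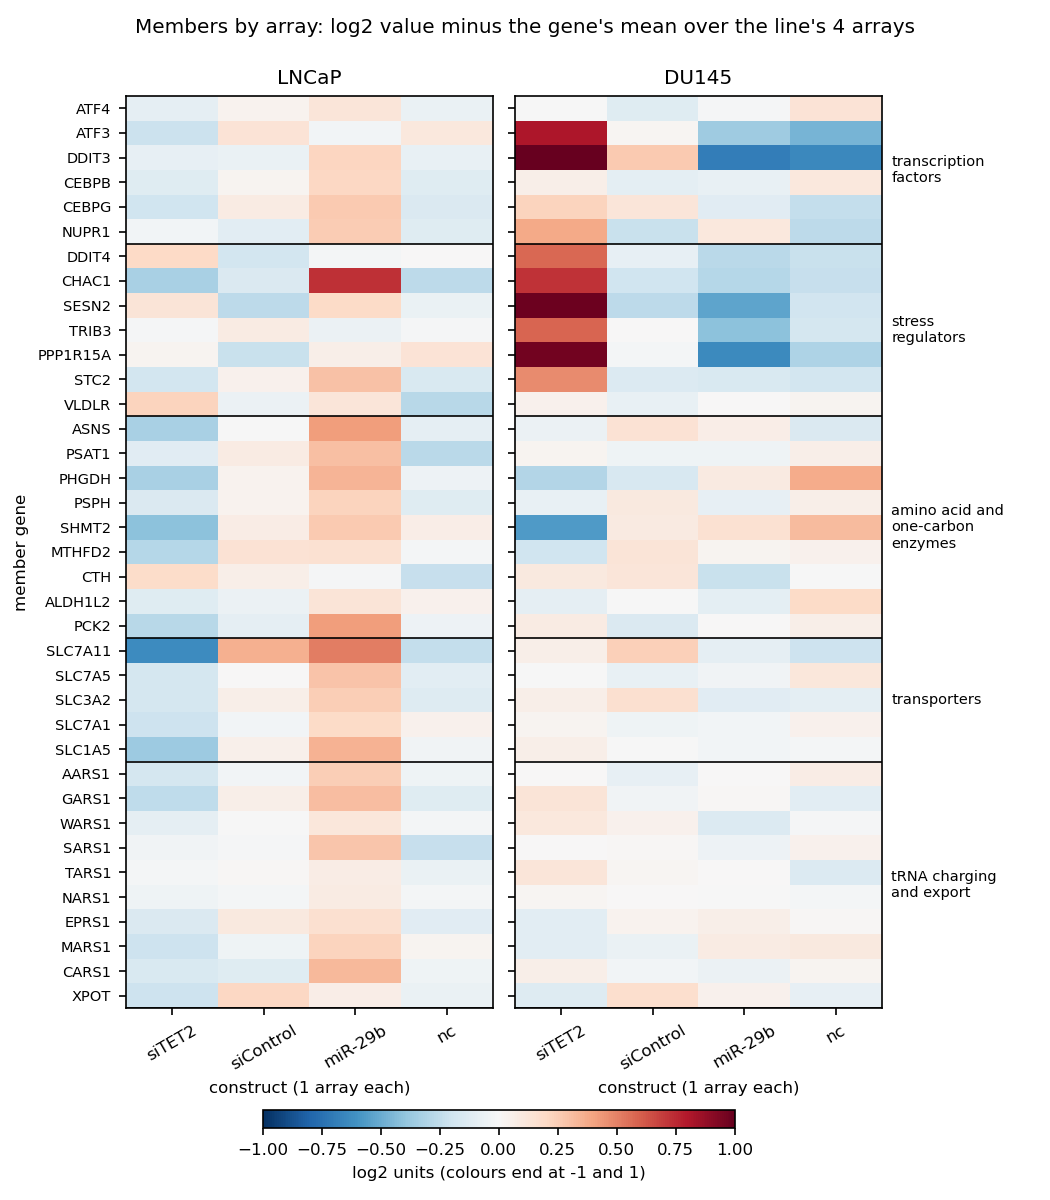
The 37 measured members (rows, by role) on the 8 arrays (columns, 1 per line and construct), coloured by the log2 value minus the gene's mean over the 4 arrays of its line. In LNCaP the miR-29b column is the highest for 30 members and the siTET2 column the lowest for 27, and in DU145 the siTET2 column is high for transcription factors and stress regulators.

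CHAC1 had a log2 value of 8.93 with miR-29b and 7.94 with nc in LNCaP, a difference of 0.99 or 1.98-fold, while siTET2 gave 7.88 and siControl 8.06. The miR-29b array thus stood alone above the other LNCaP arrays. SLC7A11 was 11.24 with miR-29b and 10.50 with nc, a difference of 0.74. Its siControl value was 11.09, so that miR-29b was only 0.15 above the other control array. CHAC1 and SLC7A11 were the 2 members at least 1.5-fold higher among the 32 above the level floor in LNCaP, where 0.51% of 9209 genes were. That floor is the median, over named genes, of a gene's mean on the 4 arrays of the line. None of the 32 was 1.5-fold lower, against 0.239% of genes. Of these 32 members, 30 were above 0, where 55.8% of the 9209 genes above the floor were.

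Enzymes that make amino acids and feed one-carbon metabolism were all above 0 in LNCaP, 9 of 9. The largest differences among them, chosen after their values were seen, were in PSAT1, PHGDH's partner in serine synthesis, in ASNS, the asparagine synthetase, and in PCK2, the mitochondrial enzyme that makes phosphoenolpyruvate. PSAT1 was 10.76 with miR-29b and 10.19 with nc (0.57), with 10.34 with siTET2 and 10.54 with siControl. ASNS was 10.22 with miR-29b and 9.70 with nc (0.51), with 9.47 with siTET2 and 9.79 with siControl. PCK2 was 10.07 with miR-29b and 9.59 with nc (0.47), with 9.36 with siTET2 and 9.55 with siControl. For each of these 3 genes miR-29b gave the highest LNCaP value. PHGDH, the first enzyme of serine synthesis, differed by 0.40, PSPH, the last, by 0.35, SHMT2 and MTHFD2, which pass serine carbon to folate in mitochondria, by 0.19 and 0.17, CTH, which makes cysteine, by 0.21, and ALDH1L2, a mitochondrial folate enzyme below the level floor, by 0.09.

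All 5 transporters were above 0 in LNCaP. Beside SLC7A11, the leucine importer SLC7A5 differed by 0.39 (below the level floor), its partner chain SLC3A2 by 0.38, the glutamine transporter SLC1A5 by 0.39 (-0.02 on its other, dimmer probe set) and the arginine transporter SLC7A1 by 0.15. The 9 tRNA synthetases and the tRNA exporter XPOT were all above 0, from 0.11 in NARS1 to 0.50 in SARS1, the seryl-tRNA synthetase. SARS1 was 11.18 with miR-29b and 10.68 with nc, with 10.87 with siTET2 and 10.90 with siControl, and GARS1, the glycyl-tRNA synthetase, was 12.08 with miR-29b and 11.65 with nc, with 11.52 with siTET2 and 11.83 with siControl. The miR-29b array was again the highest of the line for both.

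Among transcription factors, DDIT3 differed by 0.29, CEBPB by 0.33 and CEBPG by 0.40 in LNCaP, the last 2 being known partners of ATF4 on DNA, and NUPR1, a stress-induced chromatin factor, by 0.38. ATF3, a stress-induced repressor below the level floor, was at -0.13. ATF4 itself was 11.03 with miR-29b and 10.84 with nc (0.19), with 10.82 with siTET2 and 10.95 with siControl. Its other probe set gave -0.05 for the same difference, so the direction of ATF4 mRNA depended on the probe set. Of the stress regulators, STC2, a secreted glycoprotein, was at 0.44, VLDLR, a lipoprotein receptor, at 0.40 and SESN2, a leucine sensor that restrains mTORC1, at 0.26. DDIT4, another inhibitor of mTORC1, TRIB3, a pseudokinase that inhibits ATF4, and PPP1R15A, which brings a phosphatase to eIF2, were at -0.03, -0.04 and -0.08.

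Set against siControl instead of nc, 33 of 37 members were still above 0 in LNCaP with miR-29b, where 60.4% of all named genes were, and the median over the 32 members above the floor was 0.21 in place of 0.31. The medians over all genes above the floor were 0.00 and 0.02. The control arrays themselves differed: 29 of 37 members were higher with siControl than with nc (39.9% of all named genes), with a median of 0.09 over all 37. Of the 32 above the floor, SLC7A11 alone was at least 1.5-fold higher (1.53% of 9209 genes).

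In DU145, 11 of 37 members were above 0 with miR-29b against nc and 26 below (50.8% of all named genes). Above the floor 25 of 34 members were below 0, where 65.5% of 9209 genes were. The medians above the floor were -0.05 over members and -0.04 over all genes, so the members lay close to genes of like level. None of the 34 reached 1.5-fold in either direction (0.0652% of 9209 genes higher and 0.0543% lower). The differences ran from -0.33 in SESN2 and PPP1R15A to 0.21 in ASNS and, below the floor, 0.36 in NUPR1. CHAC1 was 8.39 with miR-29b and 8.44 with nc, and SLC7A11 9.75 and 9.63, with 9.90 with siTET2 and 10.08 with siControl. Both genes were thus close to their control where LNCaP had its largest differences.

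The common effect of miR-29b over both lines was fitted with limma on all 8 arrays, with line and construct as terms. None of 35 members tested passed the threshold of 0.05 after Benjamini-Hochberg adjustment over 9209 genes, of which 0 (0%) passed. At an unadjusted p below 0.05, 2 members were higher, ASNS (0.36, SE 0.141) and NUPR1 (0.37, SE 0.140), each with a limma adjusted p of 0.995, where 1.09% of genes were higher at that level. Set against its own control, the miR-29b difference was larger in LNCaP than in DU145 for 36 of 37 members, where 48.8% of all named genes were, with a median of 0.36 between the lines. The fit asked this with a term for line and miR-29b together, which sets miR-29b against the mean of the other 3 arrays of its line, siTET2 included, so that values of the siTET2 arrays enter it. It was positive, that is higher in LNCaP, for 35 of 35 members (55.3% of 9209 genes), with a median of 0.39 against 0.02 over all genes. It passed for 0 members and 0 genes (0%) after adjustment. At an unadjusted p below 0.05 there were 13 members on the positive side, where 2.18% of genes were, led by CHAC1 (1.35, SE 0.382, limma adjusted p = 0.999), which differed by 1.04 against its own control. The members share the same arrays and are not replicates of one another.

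**Figure D2:**
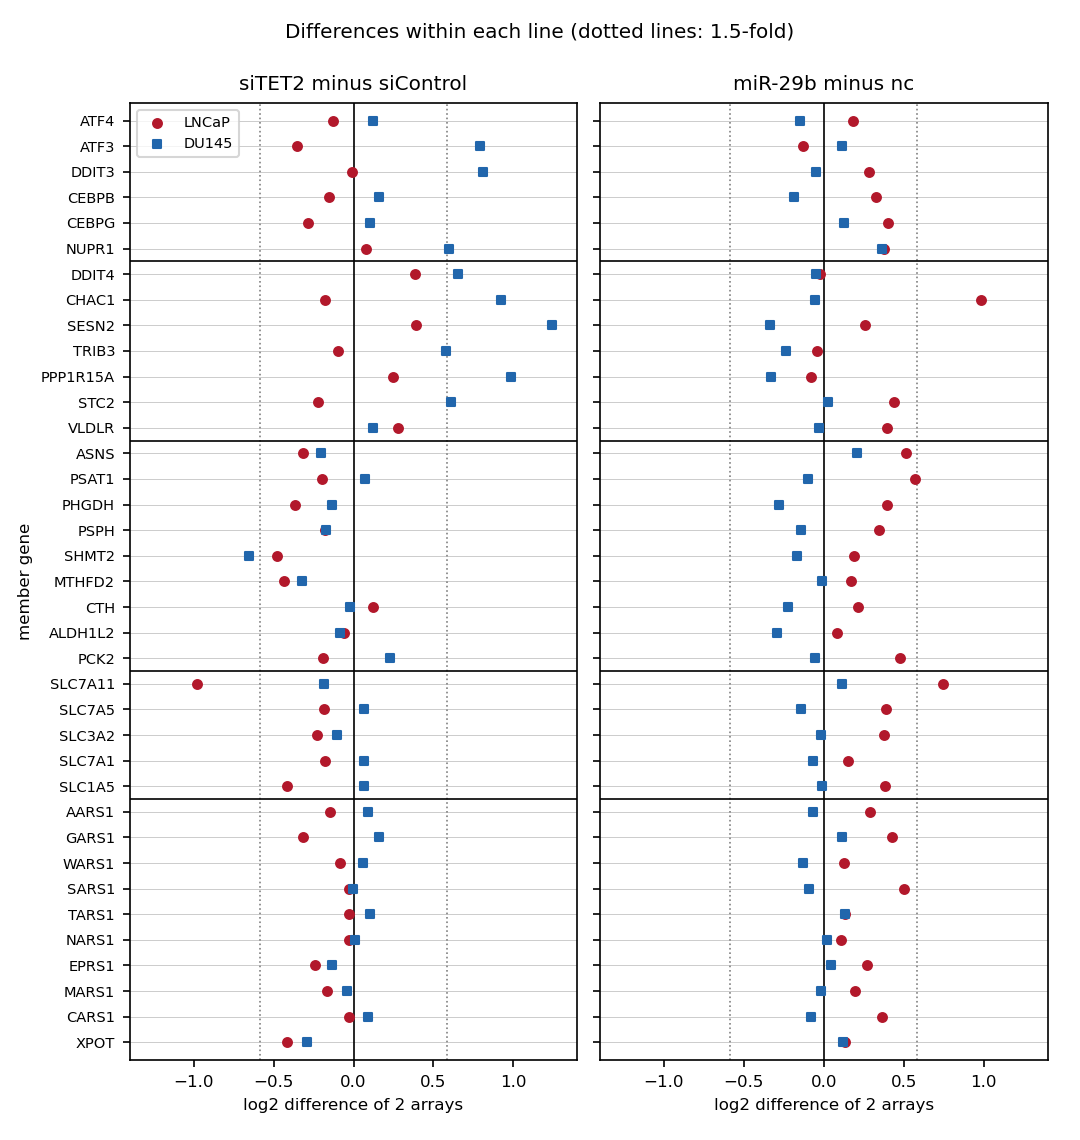
Log2 difference of each member (rows, by role) between siTET2 and siControl (left) and between miR-29b and nc (right), in LNCaP (circles) and DU145 (squares), with dotted lines at 1.5-fold. In the right panel 33 of 37 LNCaP points lie above 0, and in the left panel 31 LNCaP points lie below 0 while DU145 points of 8 transcription factors and stress regulators lie beyond 1.5-fold.

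The second question was how members differed with siTET2. In DU145 the differences with siTET2 varied with the role of the members. The lists of roles were drawn up with earlier results of these data known, so this split is a description. Transcription factors and stress regulators were higher than with siControl on the probe sets used, 6 of 6 and 7 of 7 (4 of 6 and 7 of 7 against nc), and 8 of them were at least 1.5-fold higher, where 0.939% of all named genes were. SESN2, PPP1R15A, CHAC1, DDIT3 and ATF3 differed most. Over all 37 members 24 were above 0, where 51.5% of all named genes were. Enzymes of amino acid and one-carbon metabolism were lower in 7 of 9 cases (6 of 9 against nc), where 48.4% of all named genes were. Their median was -0.13, and some of the 7 lay near 0, such as CTH at -0.02. Transporters and tRNA genes lay near 0. Of the 34 members above the floor, 6 were at least 1.5-fold higher, against 0.814% of 9209 genes, and 1 was at least 1.5-fold lower, against 1.52%.

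SESN2 was 8.73 with siTET2 and 7.49 with siControl in DU145, a difference of 1.24 or 2.36-fold, with 7.23 with miR-29b and 7.56 with nc. PPP1R15A was 9.74 with siTET2 and 8.75 with siControl (0.99), with 8.13 with miR-29b and 8.46 with nc. CHAC1 was 9.40 with siTET2 and 8.48 with siControl (0.92), with 8.39 with miR-29b and 8.44 with nc. In each of these genes the siTET2 array was the highest of the 4, by more than the range of the other 3.

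DDIT3, a factor that promotes death under lasting stress, was 9.92 with siTET2 and 9.11 with siControl in DU145 (0.81), with 8.15 with miR-29b and 8.20 with nc. Both siRNA arrays were thus above both miRNA arrays, and siControl alone lay 0.91 above nc. ATF3 was likewise highest with the 2 siRNAs, with 6.91 with siTET2, 6.12 with siControl, 5.74 with miR-29b and 5.63 with nc, at levels below the floor. DDIT3 was the 1 member at least 1.5-fold higher between the DU145 control arrays among the 34 above the floor, where 0.141% of genes were.

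DDIT4 was 10.11 with siTET2 and 9.45 with siControl in DU145 (0.65), with 9.26 with miR-29b and 9.31 with nc. STC2 was 8.85 with siTET2 and 8.24 with siControl (0.61), with 8.22 with miR-29b and 8.19 with nc, and NUPR1, below the floor in this line, was 6.47 with siTET2 and 5.87 with siControl (0.60), with 6.19 with miR-29b and 5.83 with nc. TRIB3 lay just inside the 1.5-fold limit, at 9.22 with siTET2 and 8.64 with siControl (1.49-fold). Against nc in place of siControl TRIB3 was 0.76 higher, and 7 of the 34 members were then at least 1.5-fold higher, against 1.39% of 9209 genes. The remaining factors and regulators, ATF4, CEBPB, CEBPG and VLDLR, differed from siControl by 0.10 to 0.16. ATF4 was 10.85 with siTET2 and 10.73 with siControl, with 10.84 with miR-29b and 10.99 with nc, and its other probe set gave -0.10, so no direction can be given for ATF4 mRNA.

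SHMT2, the mitochondrial serine hydroxymethyltransferase, was the 1 member at least 1.5-fold lower in DU145. It was 11.08 with siTET2 and 11.74 with siControl (-0.66), with 11.81 with miR-29b and 11.97 with nc. MTHFD2 was 11.50 and 11.83 (-0.32), ASNS 9.50 and 9.70 (-0.20, but 0.09 against nc) and PHGDH 10.89 and 11.02 (-0.13), with siTET2 and siControl in that order. SHMT2 and MTHFD2 were thus lowest on the DU145 array on which the stress regulators were highest. PHGDH was 11.55 with nc, so that it lay 0.66 lower with siTET2 when set against that array. The 10 genes of tRNA charging and export ran from -0.29 in XPOT to 0.16 in GARS1, and the 5 transporters from -0.18 in SLC7A11 to 0.07.

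**Figure D3:**
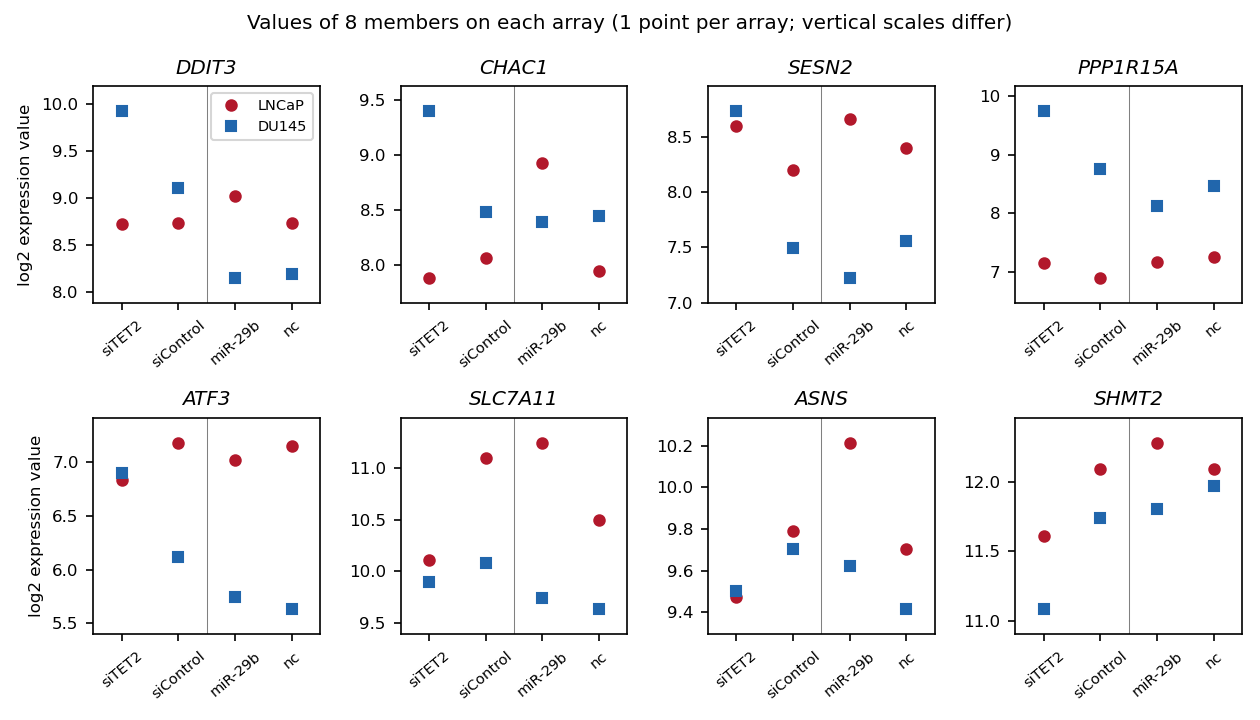
Log2 value of 8 members on each array, in LNCaP (circles) and DU145 (squares), with a grey line between the siRNA and the miRNA arrays and a vertical scale of its own in each panel. The DU145 siTET2 array is highest for DDIT3 (9.92), CHAC1 (9.40), SESN2 (8.73) and PPP1R15A (9.74), the LNCaP siTET2 array is low for SLC7A11 (10.11), and SHMT2 is lowest with siTET2 in both lines.

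In LNCaP most members were lower with siTET2, by small amounts. Against siControl, 31 of 37 were below 0, where 41.1% of all named genes were. Above the floor 28 of 32 members were below 0, where 46.6% of 9209 genes were. The siTET2 array was the lowest of the 4 arrays for 27 of 37 members (22.6% of all named genes). All 10 genes of tRNA charging and export were below 0, from -0.41 in XPOT to -0.03, as were all 5 transporters. Of the 32 members above the floor, SLC7A11 alone reached 1.5-fold lower (2.27% of 9209 genes), and none reached 1.5-fold higher (0.293%).

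SLC7A11 was 10.11 with siTET2 and 11.09 with siControl in LNCaP, a difference of -0.98 or 1.97-fold. The nc array gave 10.50, so the difference was -0.39 when set against nc. SHMT2 was 11.61 with siTET2 and 12.09 with siControl (-0.48), with 12.28 with miR-29b and 12.09 with nc. SLC1A5 was 9.78 and 10.20 (-0.41, and -0.07 on its other probe set), MTHFD2 10.75 and 11.18 (-0.43) and PHGDH 11.79 and 12.16 (-0.37), with siTET2 and siControl in that order. The 6 members above 0 were SESN2 (0.39), DDIT4 (0.39), VLDLR (0.28), PPP1R15A (0.25), CTH (0.12) and NUPR1 (0.08), 4 of which are stress regulators. PPP1R15A, below the floor, was at -0.11 against nc.

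The members that were high with siTET2 in DU145 had the following LNCaP values. SESN2 was 8.59 with siTET2 and 8.20 with siControl, with 8.65 with miR-29b and 8.39 with nc, and DDIT4 was 9.63 with siTET2 and 9.25 with siControl, with 9.42 with miR-29b and 9.44 with nc. DDIT3 was 8.73 with siTET2 and 8.74 with siControl, with 9.02 with miR-29b and 8.74 with nc. In these 3 genes siTET2 was the highest LNCaP array for DDIT4 only. PPP1R15A was 7.15 with siTET2 and 6.91 with siControl, with 7.18 with miR-29b and 7.27 with nc, and ATF3 was 6.83 with siTET2 and 7.19 with siControl, with 7.02 with miR-29b and 7.15 with nc. STC2 was 8.19 with siTET2 and 8.41 with siControl, with 8.66 with miR-29b and 8.22 with nc, and NUPR1 was 11.54 with siTET2 and 11.46 with siControl, with 11.83 with miR-29b and 11.45 with nc. ATF3 and STC2 were lowest with siTET2 in LNCaP, as was CHAC1.

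Against nc, 28 of 37 LNCaP members were below 0 with siTET2, where 57.5% of all named genes were. Above the floor 24 of 32 members were below 0, against 4202 of 9209 genes. The median over these 32 members was -0.05 in place of -0.18. The medians over all genes above the floor were 0.02 and 0.01. The transporters kept their direction, 5 of 5 below 0 with a median of -0.25, and those of tRNA charging and export had a median of -0.09 with 2 of 10 above 0.

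For siTET2 over both lines, limma called 0 of 35 members, with 3 genes higher (0.0326%) and 32 lower (0.347%) among 9209 genes. The nearest was SHMT2 (-0.57, SE 0.112, limma adjusted p = 0.0766). MTHFD2 (-0.38, SE 0.0914) and XPOT (-0.35, SE 0.0853) had a limma adjusted p of 0.130. DDIT4 was at 0.52 (SE 0.149, limma adjusted p = 0.180) and SESN2 at 0.82 (SE 0.283, limma adjusted p = 0.243). At an unadjusted p below 0.05, 3 members were higher (5.47% of genes) and 4 lower (8.27%), which is close to those shares. When the LNCaP siTET2 array was left out, siTET2 was 1 array, that of DU145, assumed to vary like the other groups. The line and control levels of that fit still came from both lines. For 3 members picked after the fit, its estimates were 1.38 (SESN2), 0.77 (DDIT4) and 0.61 (NUPR1, below the floor in DU145). Set against the DU145 siControl array alone, these members differed by 1.24, 0.65 and 0.60, in that order.

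The term for line and siTET2 together was negative, that is lower in LNCaP than in DU145, for 32 of 35 members, against 43.7% of 9209 genes, with a median of -0.26 against 0.03 over all genes. It passed for 0 members and 0 genes (0%) after adjustment. At an unadjusted p below 0.05 there were 13 members on the negative side (4.97% of genes), among them TRIB3 (-0.80, SE 0.155, limma adjusted p = 0.200), STC2 (-0.88, SE 0.178, limma adjusted p = 0.219), SESN2 (-1.13, SE 0.261, limma adjusted p = 0.244) and DDIT3 (-1.54, SE 0.400, limma adjusted p = 0.265). This term too is against the mean of the other 3 arrays and shares all 8 arrays with that for miR-29b. Against siControl alone the difference between the lines was -0.68 for TRIB3, -0.84 for STC2, -0.85 for SESN2 and -0.82 for DDIT3, and it was below 0 for 33 of 37 members (46.1% of all named genes). Across the 37 members, the siTET2 differences of LNCaP and DU145 correlated with r = 0.56 (Pearson) and rho = 0.52 (Spearman), against 0.37 and 0.33 across 9209 genes, so the order of members was partly shared although the level of most was not. Genes are not independent replicates.

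Members with and without the response element letters in their promoter were set side by side. The 13 with a match had a median of 0.37 with miR-29b in LNCaP, 12 of 13 above 0, and the 19 without one 0.27, 16 of 19 above 0. With siTET2 in LNCaP the medians were -0.18, 0 of 13 above 0, and -0.13, 5 of 19 above 0. With siTET2 in DU145 they were 0.09 and 0.12, and with miR-29b in DU145 -0.01 and -0.10. The medians of both sets lay close together in each contrast beside the ranges of their members, which for siTET2 in DU145 were -0.20 to 0.92 and -0.32 to 1.24. CHAC1 was the member with a match that stood highest with siTET2 in DU145, while for DDIT3, SESN2 and PPP1R15A the windows hold no match.

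Other genes of the pathway were taken from further lists, which hold no members. Like the members, these lists were chosen with earlier results of these data known. Their difference from the members was not tested. Of 15 genes for eIF2 kinases, eIF2 and its exchange factor eIF2B, 8 were above 0 with miR-29b in LNCaP (median 0.02) and 5 with siTET2 in DU145 (median -0.05). All 15 were above the floor, where 55.8% and 46.8% of genes were above 0, in that order. EIF2AK2, the kinase that senses double-stranded RNA and is itself induced by interferon, was 9.96 with miR-29b and 9.33 with nc in LNCaP (0.64), with 9.68 with siTET2 and 9.87 with siControl. In DU145 it was 10.08 with miR-29b and 10.20 with nc. EIF2S1, the subunit of eIF2 that the kinases phosphorylate, was 11.00 with siTET2 and 11.60 with siControl in DU145 (-0.60), with 11.53 with miR-29b and 11.45 with nc. The part of either gene in the members' values was not tested.

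Of 26 further ATF4 target genes, 16 were above 0 with miR-29b in LNCaP, with a median of 0.12, and 9 with siTET2, with a median of -0.04. In DU145, 16 were above 0 with siTET2 (median 0.07) and 8 with miR-29b (median -0.07). Of all named genes 45.3%, 58.8%, 51.5% and 49% were above 0 in these contrasts, in that order. Among genes above the floor the shares were 55.8%, 53.3%, 46.8% and 34.4%. GDF15, a stress-induced cytokine, was 6.88 with siTET2 and 6.29 with siControl in DU145, below the floor there, and TSC22D3, a leucine zipper protein, was 7.91 with siTET2 and 7.34 with siControl. The 16 chaperones and quality-control genes of the endoplasmic reticulum had a median of 0.01 with miR-29b in LNCaP, 9 above 0. With siTET2 against siControl it was -0.07 in both LNCaP and DU145, 3 above 0 in each. Set against nc, it was -0.0045 in LNCaP, 6 above 0, and 0.0085 in DU145, 9 above 0, so the lower values depended on the control array. With siTET2 in DU145 the stress regulators' median was 0.65 against siControl and 0.79 against nc. DNAJB9, a chaperone cofactor that unfolded protein induces, was 7.83 with siTET2 and 8.29 with siControl in DU145, with 7.73 with miR-29b and 7.87 with nc.

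The third question was how members differ between the lines. Since the array medians differed by line, each array was centred on its median over named genes, and limma with line and construct as terms compared the 4 LNCaP with the 4 DU145 arrays. Of 35 members tested, 8 were higher and 17 lower in LNCaP, against 36.9% and 41.9% of 9209 genes, so the members did not stand out from all genes in how often they differed. On the values as deposited, without centring, 12 members were higher and 9 lower, against 54.1% and 27.6% of genes. The 4 arrays of a line held different constructs, and the labels name no separate cultures of a line, so these p-values reflect only how the 8 arrays scatter, part of which may be technical.

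Of these 35, 4 were above the level floor in 1 line only and were tested through that line, where they are high, so that they had to differ: NUPR1 in LNCaP, and SLC7A5, PPP1R15A and VLDLR in DU145. Their values are given with no p. Among the 31 members above the floor in both lines, a restriction chosen after seeing the data, 7 were higher and 14 lower in LNCaP, against 35.6% and 40.5% of 8082 genes.

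NUPR1 lay between 11.45 and 11.83 in LNCaP and between 5.83 and 6.47 in DU145, a centred difference of 5.20, with its DU145 level below the floor. PCK2 was 9.36 to 10.07 in LNCaP and 8.10 to 8.33 in DU145 (1.11, SE 0.113, limma adjusted p = 1.21e-05). PHGDH (0.65), SLC7A11 (0.61), SLC3A2 (0.31), SARS1 (0.30), NARS1 (0.29) and XPOT (0.25) were higher in LNCaP as well, with limma adjusted p-values from 0.00039 to 0.0145. SESN2, at 0.43 (SE 0.196), did not pass (limma adjusted p = 0.0719). The call of SARS1 was lost without either miR-29b array (0.19) or either siControl array (0.29), and that of SLC3A2 without either miR-29b array (0.20).

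SLC7A5 was 7.10 to 7.57 in LNCaP, below the floor, and 10.54 to 10.72 in DU145, a centred difference of -3.61. Its partner chain SLC3A2 was, in contrast, higher in LNCaP. PPP1R15A was 6.91 to 7.27 in LNCaP and 8.13 to 9.74 in DU145 (-1.93), and VLDLR was 7.28 to 7.78 and 8.97 to 9.09 (-1.77), for LNCaP and DU145 in that order, both below the floor in LNCaP. PSAT1 (-1.33), CEBPB (-1.04), MTHFD2 (-0.95), MARS1 (-0.77) and CHAC1 (-0.76) were lower in LNCaP too, with limma adjusted p-values from 1e-06 to 0.0190. The call of CHAC1 was lost when any siTET2, siControl or nc array was left out, with estimates from -0.79 to -0.40. It was also lost on the values as deposited, without centring (-0.47).

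The enzymes of one pathway did not differ alike. In serine synthesis PHGDH was higher and PSAT1 lower in LNCaP, and PSPH, at -0.19 (SE 0.0849), had a limma adjusted p of 0.0673, passed without either miR-29b array (-0.29) and was at 0.10 on the values as deposited. ALDH1L2 was 4.63 to 4.88 in LNCaP and 7.10 to 7.39 in DU145, without overlap, but its mean was below the level for testing, as was that of ATF3. ATF4 mRNA was lower in LNCaP by the centred values (-0.23, SE 0.0820, limma adjusted p = 0.0268), and as deposited, without centring, it was 10.82 to 11.03 in LNCaP and 10.73 to 10.99 in DU145, where the difference was 0.05, so this direction depends on the scaling. The mean of both ATF4 probe sets also gave 0.05, and the call was lost without either siTET2 array (-0.19) or either nc array (-0.16).

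**Figure D4:**
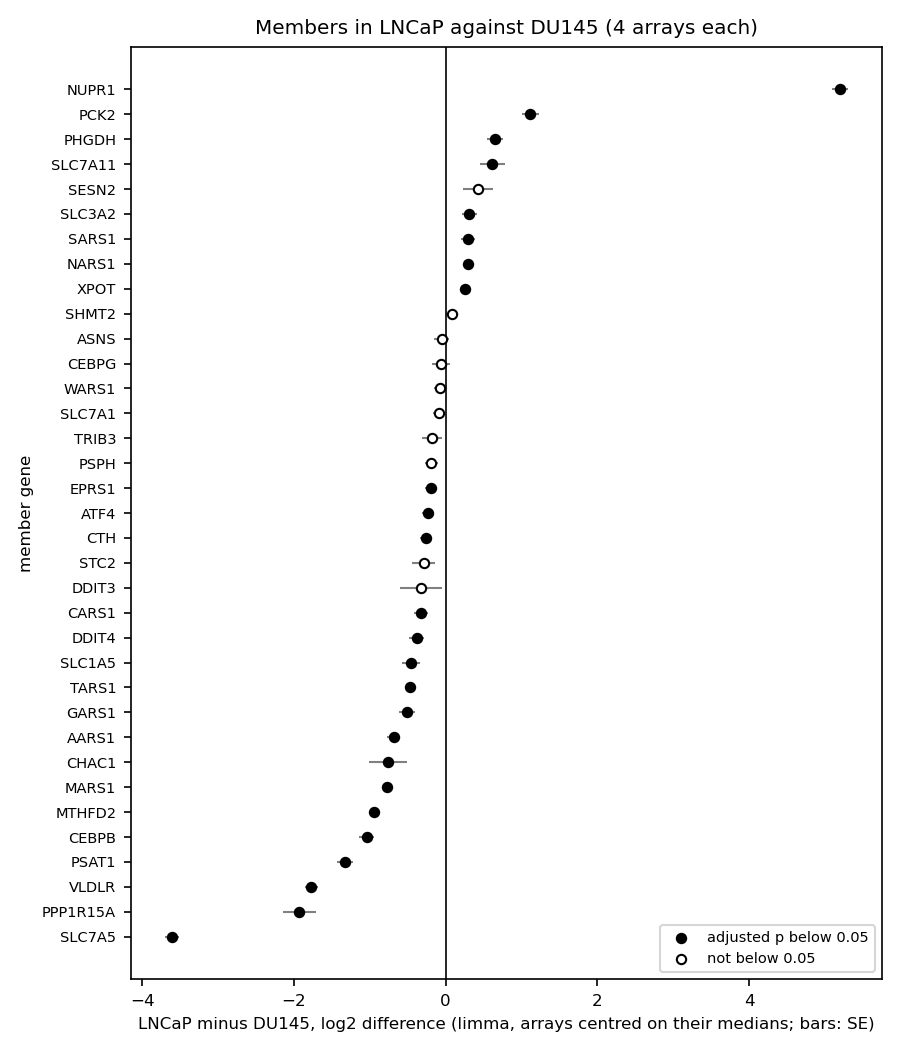
LNCaP minus DU145 log2 difference of the 35 members tested (rows), from limma on arrays centred on their medians, with bars for the SE and filled points for an adjusted p below 0.05. NUPR1 (5.20) and SLC7A5 (-3.61) lie apart from all others, which lie between -1.93 and 1.11. These 2, PPP1R15A and VLDLR were above the level floor in 1 line only and so had to differ, and their filled points are not to be read as tests.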

How the data were processed

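Total RNA of 8 cultures (LNCaP and DU145, each with siTET2, siControl, miR-29b or nc, 72 h after transfection) was measured on Affymetrix whole-transcript arrays. The values are log2 signals made by the authors with RMA in Affymetrix Expression Console, per the submitters' processing notes, whose versions and joint or separate runs are not given in the sources used here. Of 33297 probe sets, 19460 had 1 gene symbol, 1754 several and 12083 were not listed in the platform annotation. Symbols were checked against RefSeq, where 19429 of the 19460 matched. The number of arrays limits the precision.

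Groups came from the sample titles. Differences between 2 arrays of a line were computed as they stand, and counts use 1.5-fold as limit. limma 3.58.1 (R 4.3.3; lmFit, eBayes, Benjamini-Hochberg, threshold 0.05) was fitted on 9209 genes with a mean at or above the median, with line and construct (3 residual degrees of freedom), or with a line by construct term (2). This term sets a construct against the other 3 of its line. The code was tested on simulated data with planted 2-fold changes and smaller planted changes of 0.5 on the log2 scale. The common siTET2 term recovered 92% of the 2-fold changes, the common miR-29b term 85% and the line term 97%. Of the changes of 0.5, these terms recovered 40%, 44% and 74%, in that order. A member that differs by that much or less can thus miss the threshold. The line by siTET2 term recovered 0% at both sizes, so a miss of the threshold by that term carries little information. Alternatives were the other control array, the mean of both, no floor, mean of probe sets, uncentred values, eBayes with trend and each array left out. Every array's values are given for ATF4 and for members past 1.5-fold in a contrast, the 8 largest called line differences in each direction are named, and further members are named as examples. The members and lists were chosen with earlier results of these data known. Python 3.11.15, numpy 2.4.6, pandas 2.3.3 and matplotlib 3.10.9 were used.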

Additional observations from a re-analysis of the deposited data

Results flagged for a closer look

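In 3 cases a member lay on opposite sides of 0 in the 2 lines, at least 2-fold apart. With 1 array per group these differences between single arrays were not tested. With siTET2, ATF3 was at -0.35 in LNCaP and 0.79 in DU145, so that the LNCaP difference minus the DU145 difference was -1.14, at levels below the floor in both lines. CHAC1 was at -0.18 in LNCaP and 0.92 in DU145 with siTET2, which gives -1.10. With miR-29b CHAC1 was at 0.99 in LNCaP and -0.05 in DU145, which gives 1.04. The terms that set each construct against the other 3 of its line gave CHAC1 limma adjusted p-values of 0.265 for siTET2 and 0.999 for miR-29b.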

How the results depend on the processing

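Only part of the tested results was followed gene by gene. For the lines, these were the 8 largest called differences in each direction, ATF4 and PSPH. For the other terms, they were the members with an unadjusted p below 0.05. Of these results, 2 changed direction, both between LNCaP and DU145. ATF4 was at 0.0501 with the mean of both probe sets and at 0.0545 on uncentred values. PSPH was at 0.097 on uncentred values, where array medians were higher in LNCaP. Other line differences were not followed this way and may turn as well. Of the untested differences within a line, the sign turned against the other control array for 4 of 37 members with siTET2 in LNCaP (largest PPP1R15A, 0.25 and -0.11), 10 with siTET2 in DU145 (ASNS, -0.20 and 0.09), 4 with miR-29b in LNCaP (CTH, 0.21 and -0.08) and 18 with miR-29b in DU145 (PHGDH, -0.28 and 0.25), so small differences carry no direction. When the other control array of the line replaced the construct's own, 0 LNCaP members were at least 1.5-fold lower with siTET2 in place of 1, and 7 of those above the floor were above 0 in place of 4 (8 with no floor as well, an alternative chosen after seeing the data). In the same setting 2 DU145 members in place of 1 were at least 1.5-fold lower with siTET2, 1 LNCaP member in place of 2 was at least 1.5-fold higher with miR-29b (1 also against the mean of both controls), and 2 DU145 members in place of 0 were at least 1.5-fold lower with miR-29b, DDIT3 and PPP1R15A. The counts over 9209 genes in that setting were 42 in place of 209, 222 in place of 140, 18 in place of 47 and 23 in place of 5, in the order of the counts past 1.5-fold above. With a trend in eBayes, SHMT2 and MTHFD2 passed as lower for the common siTET2 effect, 2 members in place of 0 (1.04% of genes). That effect is fitted over both lines together and tests neither line alone. Between the lines, 2 members were called higher and 5 lower at 2-fold or more (7.84% and 12.2% of genes), and 9 lower on uncentred values in place of 17 (27.6% of genes). Those at 2-fold include NUPR1, SLC7A5, PPP1R15A and VLDLR, which were above the floor in 1 line only and so had to differ. The other counts between the lines hold these members as well. With each array left out in turn, 0 to 3 members were called higher and 0 lower with siTET2 (3 without the LNCaP siTET2 array), 0 with miR-29b and 0 between the controls, and 6 to 9 were higher and 13 to 20 lower between the lines. Among all genes, the 35 called with siTET2 became 113 with a trend, 18 against the other control, 1 with no floor and 0 to 136 with an array left out. No paired analysis was possible because each line and construct has 1 array and the labels give no replicate numbers.

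With 1 array a group, nothing within a line separates a construct from the culture, the RNA preparation or the array it was measured on, and differences near the array scatter cannot be read. Signal over background was not used here, so low members such as ATF3, ALDH1L2 and NUPR1 in DU145 are described by their log2 value alone. The line by construct terms rest on 2 residual degrees of freedom and called no gene without a trend (9 and 1 with it, no member), so a p that misses the threshold there does not show that the lines responded alike.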

Other observations

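Aminoacyl-tRNA synthetases that are not members were set beside the members of that role. The 10 cytosolic synthetases had a median of 0.07 with miR-29b in LNCaP, 7 of 10 above 0, where the members of tRNA charging and export had 0.23, 10 of 10 above 0. With siTET2 in LNCaP the medians were -0.06 and -0.12. In DU145, 8 of the 10 were below 0 with siTET2 (median -0.11), with VARS1, the valyl-tRNA synthetase, lowest at -0.58, while 6 of the 10 members were above 0 (median 0.04). Of 16 mitochondrial synthetases, 12 were above 0 with miR-29b in LNCaP (median 0.09) and 13 below 0 with siTET2 in DU145 (median -0.12), CARS2, the mitochondrial cysteinyl-tRNA synthetase, lowest at -0.59. Of genes above the floor, 55.8% were above 0 with miR-29b in LNCaP and 53.1% below 0 with siTET2 in DU145. These lists too were chosen with earlier results of these data known, and their difference from the members was not tested.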
